A study of Rattus norvegicus with 18 samples.

Results

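Expression of 10 genes of fat synthesis, ester cleavage and fatty acid transport (Thrsp, Acly, Acaca, Fasn, Scd, Mogat1, Dgat2, Fabp5, Ces1d and Aadac) was followed in 3 rat muscles, those that move the eye (extraocular, EOM), the diaphragm (DIA) and the extensor digitorum longus of the leg (EDL), after immunization to cause experimental autoimmune myasthenia (EAMG). The genes were taken as a set because most of them were higher in EOM of EAMG rats in earlier work on these same arrays, and because several are typical of lipid-secreting glands of the orbit. Their difference in EOM is therefore a description and carries no test. The 10 genes had 15 of the 31042 probe sets (groups of short probes that read 1 transcript) on the array, and 14 of the 15 had a signal of 400 or more on 1 array or several of the 18. These entered the tests within the 12238 probe sets of the whole array that did so. The remaining probe set, 1387538_at of Acaca, stayed between 4 and 117 on all 18 arrays and was not tested.

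The animals were female Lewis rats of 6 to 8 weeks at the start. EAMG rats received 40 µg of acetylcholine receptor from the electric ray Torpedo, once, in complete Freund's adjuvant with 0.5 mg of killed Mycobacterium tuberculosis. Control rats received the same adjuvant without receptor, so that both groups carried the adjuvant's effects, and muscles were taken at week 6. Each of the 18 arrays held RNA pooled from several rats (3 by the deposited design, 4 to 5 by the study's methods), with 3 arrays for each of the 6 combinations of muscle and treatment, so that n = 3 counts pools and single rats cannot be seen. The study's methods state that the work was repeated to produce the 3 replicates, so that arrays of 1 group may come from separate experiments. The rectus muscles were dissected from an orbit that in rodents also holds fat and several glands, and in such pooled tissue fewer cells of a kind and less RNA per cell cannot be told apart.

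Fat synthesis starts from citrate, which Acly (ATP citrate lyase) splits to acetyl-CoA. Acaca (acetyl-CoA carboxylase) turns this to malonyl-CoA, Fasn (fatty acid synthase) builds saturated fatty acids from it, and Scd (stearoyl-CoA desaturase) puts a double bond into them. Thrsp, also called Spot 14, is a small protein that accompanies active lipogenesis in liver, fat and mammary gland, Mogat1 and Dgat2 join fatty acids to glycerides, and Fabp5 carries fatty acids through the cytosol. Ces1d and Aadac are ester-cleaving enzymes of the endoplasmic reticulum. In rodents, the Harderian gland behind the eye and the Meibomian glands of the lids make and secrete lipid in quantity, whereas muscle fibres make little fat, and adipocytes between fibres add their own lipogenic RNA.

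Arrays that stood apart are given first, some by quality values and DIA control array 2 by the values of these genes themselves. Median signal lay between 128.7 and 162.5 on the 18 arrays. The poly-A spike controls averaged 586 on EOM EAMG array 2 and 842 on DIA EAMG array 2, against 11357 to 27513 on the other 16 arrays. The ratio of 3' to 5' GAPDH signal was 2.66 on DIA EAMG array 3 and at most 1.33 elsewhere. Among the genes described here, DIA control array 2 was the highest of all 18 arrays for 5 of 14 tested probe sets (both of Fasn, and those of Acly, Acaca and Scd), a place it held for 3.98% of all tested probe sets. Results that rest on these arrays are given with and without them.

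The RefSeq promoter table (assembly GRCr8) held 6 of the 10 genes: Thrsp, Scd, Aadac, Mogat1, Acly and Ces1d. In that assembly Thrsp lies on chr1:161134640-161138964, Mogat1 on chr9:87429427-87436977, Aadac on chr2:146293449-146351061 and Scd on chr1:253218968-253232101. The 250 bases before the start site are shown for the 3 genes whose EOM signals differed most, Thrsp, Mogat1 and Aadac, and for Scd, whose EOM signals did not differ. The windows of Aadac and Scd lie inside the gene spans just given, so that the start sites used are not the outer ends of those spans. Capitals mark the CCAAT box, which reads ATTGG where it lies on the opposite strand, and the GC box GGGCGG. Where the GC box lies on the opposite strand it reads CCGCCC.
Thrsp, chr1:161138965-161139214 (- strand): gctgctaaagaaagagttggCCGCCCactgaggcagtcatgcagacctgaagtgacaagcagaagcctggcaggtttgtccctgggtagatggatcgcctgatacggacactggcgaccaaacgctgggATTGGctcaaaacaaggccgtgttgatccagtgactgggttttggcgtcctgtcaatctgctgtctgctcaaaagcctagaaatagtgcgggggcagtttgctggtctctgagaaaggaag
Mogat1, chr9:87429177-87429426 (+ strand): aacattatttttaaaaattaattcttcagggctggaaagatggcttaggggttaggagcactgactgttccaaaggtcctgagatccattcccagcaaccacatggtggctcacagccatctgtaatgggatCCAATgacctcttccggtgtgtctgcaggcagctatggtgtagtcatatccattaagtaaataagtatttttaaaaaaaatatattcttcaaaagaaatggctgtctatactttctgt
Aadac, chr2:146313029-146313278 (+ strand): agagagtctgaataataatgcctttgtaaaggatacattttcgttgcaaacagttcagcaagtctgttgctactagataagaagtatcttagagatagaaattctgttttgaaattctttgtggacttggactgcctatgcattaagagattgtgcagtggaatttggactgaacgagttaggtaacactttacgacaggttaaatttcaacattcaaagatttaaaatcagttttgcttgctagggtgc
Scd, chr1:253231732-253231981 (- strand): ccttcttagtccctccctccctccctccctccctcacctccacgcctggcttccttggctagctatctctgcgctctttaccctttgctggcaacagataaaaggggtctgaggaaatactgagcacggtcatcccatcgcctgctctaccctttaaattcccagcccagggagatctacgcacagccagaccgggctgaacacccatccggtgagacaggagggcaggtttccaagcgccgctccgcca
Searched on both strands over 300 bases (250 before and 50 after the start), CCAAT was present in 4 of the 6 promoters (Thrsp, Mogat1, Acly and Ces1d) and in 37.5% of all 33469 promoters in the table. GGGCGG was in 2 of the 6 (Thrsp and Acly) and in 33.1% of all. Neither TATAAA, found in 14.2% of all promoters, nor the E-box CACGTG, found in 6.42%, was in any of the 6. In Thrsp the CCAAT match ran from -121 to -117 and in Mogat1 from -118 to -114 relative to the start site. The letters in the windows of Aadac and Scd matched none of the 4 motifs, although Aadac was among the genes that differed most in EOM and Scd was not. A match is a description of letters and does not show that a factor binds there.

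In EOM, 11 of the 14 probe sets had all 3 EAMG arrays above all 3 control arrays. Over all 12238 tested probe sets this was so for 12.5%, and since the genes were chosen on this contrast nothing is read from the difference. The 14 changes were all above 0, with a median log2 change of 1.39 against 0.00057 over all tested probe sets. The differences were large for Aadac, Thrsp and Mogat1, between 2.45- and 2.92-fold for Fabp5, Ces1d and Fasn, and near 0 on the log2 scale for Acaca and Scd.

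Thrsp, the regulator of lipogenesis, read 3963, 1859 and 3931 on EOM EAMG arrays 1, 2 and 3 (probe set 1371400_at) against 536, 328 and 234 on the controls. The EAMG geometric mean was 8.89-fold that of the controls, a log2 change of 3.15 (SE 0.57, n = 3 and 3). The lowest EAMG array, EOM EAMG 2, was still well above the highest control. A second probe set, 1370150_a_at, read 2278, 894 and 2190 against 267, 108 and 62 (log2 3.76, SE 0.67), and probe set 1387852_at read 1707, 803 and 1738 against 363, 190 and 148 (log2 2.62, SE 0.46). All 3 probe sets ordered the 6 EOM arrays in nearly the same way, with EAMG array 2 lowest in its group and control array 1 highest in its own.

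The enzymes that lead from citrate to fatty acids were higher by less, or not at all. Acly read 1608, 1659 and 1392 in EOM of EAMG rats and 1031, 794 and 801 in controls, a 1.78-fold difference (log2 0.83, SE 0.35). Fasn read 1683, 1941 and 1663 against 927, 652 and 553 by 1367708_a_at (log2 1.34, SE 0.60), and 595, 579 and 521 against 312, 260 and 150 by 1367707_at (log2 1.29, SE 0.85). The EAMG arrays of Fasn lay close together and above every control, array 2 included.

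Acaca, the step between them, read 617, 984 and 807 in EAMG and 753, 725 and 712 in control EOM. These overlapped and differed by 0.11 on the log2 scale (SE 0.36). Scd read 1200, 1427 and 1261 against 1201, 1566 and 1140, so that the groups overlapped entirely. The log2 change was 0.0035 (SE 1.04). This SE pools the spread of all groups, and Scd varied far more in ratio on the DIA and EDL arrays than in EOM.

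Of the glyceride-forming enzymes, Mogat1 read 817, 283 and 953 in EAMG EOM and 103, 147 and 54 in control EOM (log2 2.69, SE 0.84). In DIA and EDL it read between 7 and 107 on all 12 arrays, so that the 3 EOM EAMG arrays were the highest of the 18. Dgat2, which completes triglycerides, read 1088, 1502 and 786 against 585, 507 and 497 by 1391045_at (log2 1.04, SE 0.26). By 1371615_at it read 2553, 2234 and 1290 against 1483, 972 and 667 (log2 0.98, SE 0.34), and here EAMG array 3 lay below control array 1.

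The ester-cleaving enzymes and the carrier were all higher in EAMG EOM. Aadac read 1116, 426 and 1321 against 190, 36 and 22 in control EOM, a log2 change of 4.002 (SE 1.23) that fell to 2.52 when 100 was added to each signal. Of the 3 control values, 2 were near the bottom of the scale. Outside EOM, Aadac read at most 62 on any of 12 arrays. Ces1d read 2465, 3334 and 1898 against 814, 939 and 1016 (log2 1.44, SE 0.28), and Fabp5 read 1996, 1901 and 3693 against 1097, 809 and 634 (log2 1.55, SE 0.28).

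**Figure D1:**
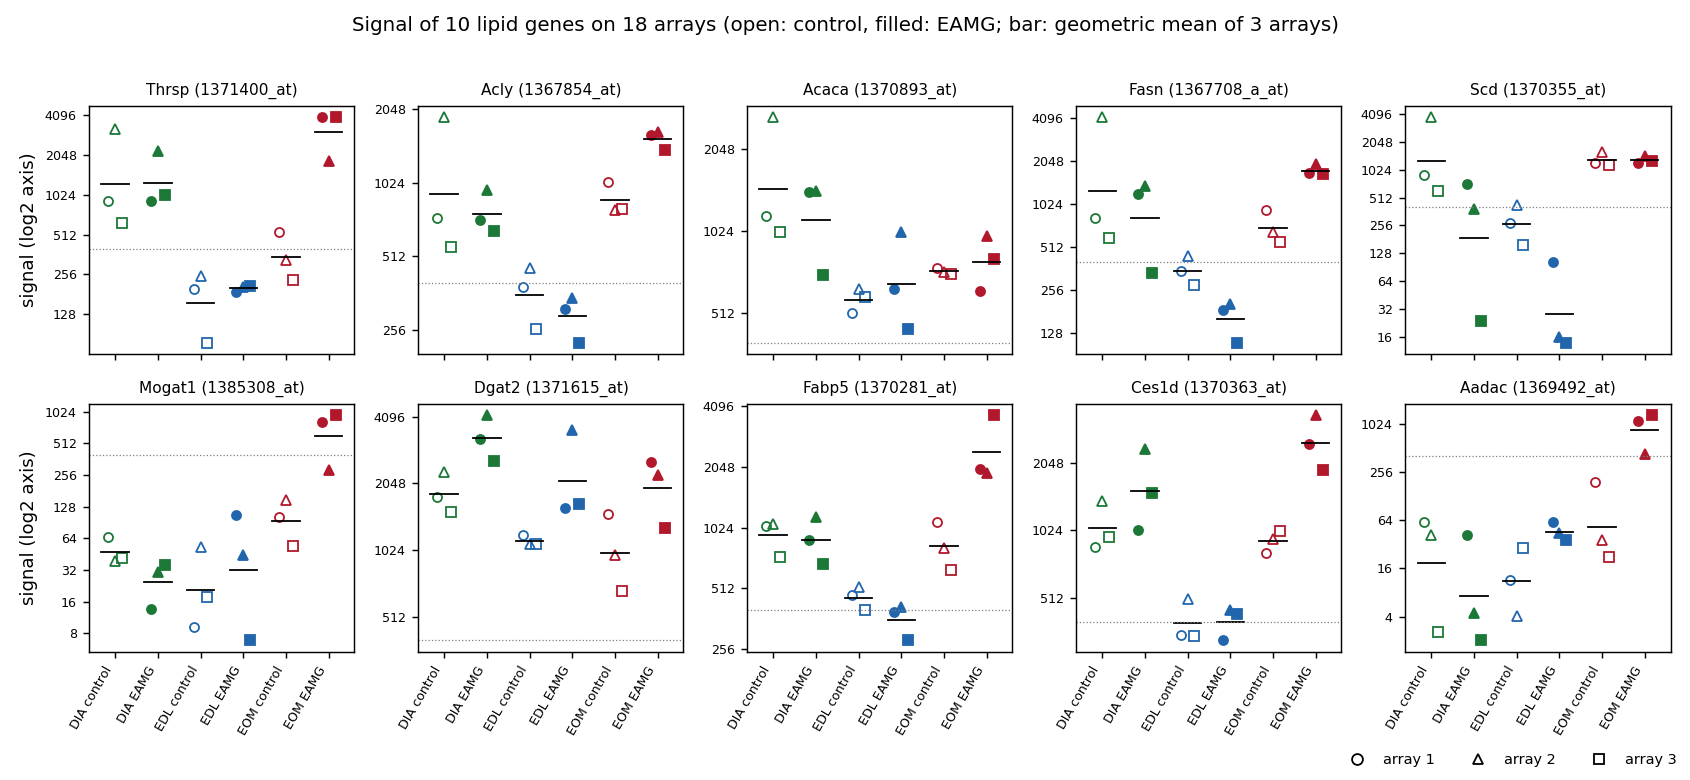
Signal (log2 axis) of the 10 genes on 18 arrays, with open symbols for control, filled symbols for EAMG, circle, triangle and square for arrays 1, 2 and 3, a bar at the geometric mean of 3 arrays and a dotted line at a signal of 400. Each gene is drawn by its brightest probe set. The 3 EOM EAMG arrays lie above the 3 EOM controls for 7 of the 10 genes drawn and overlap them for Acaca, Scd and Dgat2, and DIA control array 2 lies far above the other DIA controls for Thrsp, Acly, Acaca, Fasn and Scd.

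The 3 EOM EAMG pools did not show 1 common pattern. EOM EAMG array 2 was the lowest of its group for 6 of 14 probe sets (the 3 of Thrsp, Mogat1, Aadac and Fabp5) and the highest for 6 others (Ces1d, Fasn 1367708_a_at, Acly, Acaca, Scd and Dgat2 1391045_at). It was the lowest of its group for 32.7% of all tested probe sets. Array 3 was the highest for 4 probe sets, namely those of Mogat1, Aadac, Fabp5 and Thrsp 1387852_at. Without EOM EAMG array 3 the log2 change was 2.97 for Thrsp 1371400_at, 2.36 for Mogat1, 3.69 for Aadac and 1.24 for Fabp5. Without EOM EAMG array 2, the array with low poly-A signal, these were 3.51, 3.24, 4.51 and 1.72. With any 1 of the 18 arrays left out, the change stayed at 2.87 or more for Thrsp 1371400_at, 2.29 for Mogat1, 3.37 for Aadac and 1.24 for Fabp5.

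**Figure D2:**
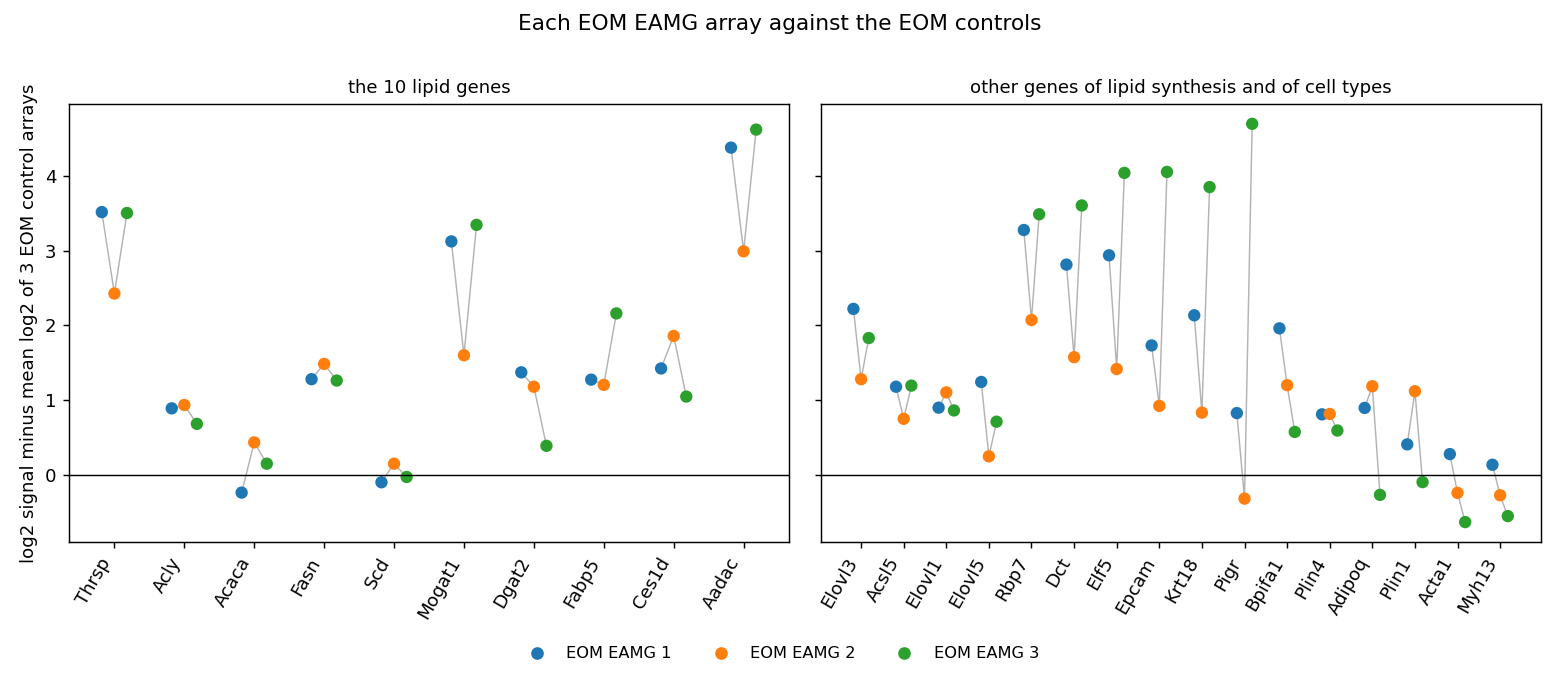
Log2 signal of each EOM EAMG array minus the mean log2 signal of the 3 EOM controls, for the 10 lipid genes (left, same probe sets as above) and for other genes of lipid synthesis and of cell types (right). Thrsp, Mogat1, Aadac, Rbp7, Dct, Elf5, Epcam, Krt18 and Pigr are all lowest on array 2. Epcam, Krt18 and Pigr are also far higher on array 3 than on arrays 1 and 2.

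Other genes, of the same pathways and of cell types, were tested in EOM, where the 10 genes could not be. Of 100 genes tested from 11 lists, 5 increased in EOM of EAMG rats and 0 decreased at an adjusted p under 0.05 (limma over all 12238 probe sets, of which 0.964% were called higher and 0.531% lower in this contrast). The lists were drawn up with earlier results of these arrays known. Among fatty acid and glyceride synthesis, 1 of 27 tested genes passed, with a list median log2 change of 0.23. It was Acsl5, which activates long-chain fatty acids to their CoA esters and read 1137, 844 and 1150 against 539, 529 and 446 (log2 1.04, SE 0.18, limma adjusted p = 0.00841, and 0.0553 without EOM control array 3). Of its 33 genes with a probe set, 10 had all EAMG arrays above all controls, as 12.5% of all tested probe sets did. Among these were the elongases Elovl1 (log2 0.95, limma adjusted p = 0.0565) and Elovl5 (log2 0.73, limma adjusted p = 0.0990), which did not pass and were named after their values were seen.

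Rbp7, a retinoid-binding relative of Fabp5, was the 1 of 3 tested genes of the Fabp family list that increased. It read 7876, 3413 and 9119 in EAMG EOM against 1319, 777 and 521 in controls (log2 2.95, SE 0.36, limma adjusted p = 0.00078). The order of its EAMG arrays was that of Mogat1, Aadac and 1 probe set of Thrsp, with array 3 highest and array 2 lowest. In the list of ester hydrolases 1 of 6 tested genes increased, Pnpla2 (adipose triglyceride lipase), at 4765, 5245 and 3844 against 2270, 2028 and 2278 (log2 1.07, SE 0.18, limma adjusted p = 0.00831, and 0.0526 without EOM control array 2). Pnpla2 also increased in DIA (log2 1.07, limma adjusted p = 0.00892) and EDL (log2 1.34, limma adjusted p = 0.00151), whereas Rbp7 and Acsl5 passed in neither.

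Cholesterol synthesis moved little. In EOM 0 of its 9 tested genes passed by limma (1 at an unadjusted p under 0.05), and the list median was -0.10, with the lowest values in Cyp51 (-0.41, limma adjusted p = 0.396) and Idi1 (-0.38, limma adjusted p = 0.103). In the list of wax ester, ether lipid and porphyrin synthesis, which names what rodent orbital and lid glands make, 3 of 13 genes were tested and 0 passed by limma (0 at an unadjusted p under 0.05). Alas1, the first enzyme of porphyrin synthesis, read 5179, 4744 and 3980 in EAMG EOM and 3714, 4525 and 4899 in control EOM, and Cpox, a later enzyme, read 1183, 1410 and 1478 against 1306, 1809 and 1386. Both overlapped. Elovl3, an elongase of very long chains, was too dim to be tested and is named after its values were seen. It read 282, 147 and 215 against 51, 62 and 70 in control EOM, and at most 56 on any DIA or EDL array.

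Markers of gland epithelium differed among themselves and among the EOM EAMG arrays. Of 10 tested genes, 0 passed limma at an adjusted p under 0.05 (6 at an unadjusted p under 0.05). Of 19 such genes with a probe set, 8 had all 3 EAMG arrays above all 3 controls, as 12.5% of all tested probe sets did. The median log2 change was 0.85 over the 19, and 1.84 over the 10 tested, of which 7 reached 400 on EOM EAMG arrays only and so had to differ. Elf3, a factor of epithelia, stood at -0.89, -0.40 and 2.18 on EAMG arrays 1, 2 and 3 against the mean of the controls, and Foxc1, a factor of eye development, at 0.31, -1.51 and -0.75 (both named after their values were seen). The summed signal of the 19 genes was 5028 to 6030 in control EOM and 6890 to 13593 in EAMG EOM. In control DIA it was 6017 to 7229 and in control EDL 5856 to 7164, so that the sum does not read gland tissue alone. Slc12a2 gave 3408, 2961 and 2976 of it in control EOM and 3782, 4420 and 3574 in EAMG EOM. Of the tested genes, the 2 with the largest changes were Elf5, a factor of secretory epithelium, at 187, 65 and 403 against 28, 48 and 11 (log2 2.80, SE 0.78, limma adjusted p = 0.0985), and Krt18, a keratin of simple epithelium, at 224, 90 and 737 against 41, 40 and 81 (log2 2.27, SE 0.65, limma adjusted p = 0.111). Elf5 passed under 2 of 24 alternatives (limma adjusted p 0.044 to 0.344), with 100 added (0.044) and without EDL EAMG array 3 (0.0467). Krt18 passed under 3 of 24 (limma adjusted p 0.0352 to 0.34). These were quantile normalization (0.0384) and the omission of EOM EAMG array 2 (0.0352) or of both arrays of low poly-A signal (0.0477). Elf5 and Krt18 reached 400 on EOM EAMG arrays only. Epcam, an adhesion molecule of epithelia, read 275, 157 and 1382 against 130, 106 and 41, and Pigr, which carries antibodies into secretions, read 185, 84 and 2729 against 101, 108 and 106. Both were named after their values were seen, and both were far higher on array 3 alone. Elf5, Krt18, Epcam and Pigr had array 3 highest and array 2 lowest, the order also seen in Mogat1, Aadac and Rbp7. Krt7, Krt8, Krt19, Cldn4, Pax6 and Muc1 kept it too. Cdh1, Elf3, Ehf, Spdef, Cldn3, Cldn7, Slc12a2, Foxc1 and Prom1 did not, so that the list was split. Over all tested probe sets array 2 was lowest for 32.7% and array 3 highest for 29.4%, and the share with both was not computed. In 9 of the 19 genes no EOM array reached 400. The part of gland tissue in the higher signals of Thrsp, Mogat1 and Aadac was not tested.

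Other cell types were read in the same way. Of 3 tested genes of secretory acini 0 passed by limma (0 at an unadjusted p under 0.05). Over the 13 genes with a probe set the median log2 change was -0.16. All EAMG arrays lay above all controls for 1 of them and below for 2 (12.5% and 11.9% of all tested probe sets). The listed genes' signal summed to 4006 to 8123 in control EOM and 6287 to 18220 in EAMG EOM. Lyz2 alone read 2926, 6855 and 3944 in control EOM and 4431, 5043 and 14111 in EAMG EOM, so that the sum mostly followed this 1 gene. Bpifa1, a secreted lipid-binding protein, read 1405, 829 and 537 against 408, 394 and 293 (log2 1.24, limma adjusted p = 0.514), and Lcn2, a secreted carrier, read 161, 162 and 3201 against 153, 401 and 205. Lcn2 was thus high on array 3 alone. Bpifa1 passed under 1 of 25 alternatives (limma adjusted p 0.026 to 0.764), with 100 added to each signal (log2 1.06, limma adjusted p = 0.026). Surface epithelium gave 0 of 6 passed by limma (0 at an unadjusted p under 0.05), with Dsp at a log2 change of 0.64 (limma adjusted p = 0.623) and Aldh3a1 at 0.61 (limma adjusted p = 0.426). Its summed signal overlapped, at 2964 to 4068 in EAMG and 2711 to 4236 in control EOM.

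Adipocyte markers summed to 27577 to 31522 in EAMG EOM and 22750 to 24891 in control EOM, and 1 of 13 increased. This was Plin4, a lipid droplet protein, at 5014, 5031 and 4314 against 2578, 2949 and 3092 (log2 0.74, SE 0.16, limma adjusted p = 0.0307). The EOM call was lost under 7 of 25 alternatives (adjusted p 0.011 to 0.168), among them the omission of EOM control array 1 (0.148), 2 (0.104) or 3 (0.0757) or EOM EAMG array 1 (0.106) or 2 (0.108). Plin4 also increased in EDL (log2 0.67, limma adjusted p = 0.0248). Adipoq, the hormone that defines adipocytes, read 360, 441 and 160 in EAMG EOM and 212, 166 and 207 in control EOM, and overlapped. Among melanocyte genes, Dct read 527, 223 and 913 against 113, 76 and 49 and increased (1 of 3 tested, log2 2.67, SE 0.61, limma adjusted p = 0.0422). It reached 400 on EOM EAMG arrays only, and its call was lost under 11 of 24 alternatives (adjusted p 0.00342 to 0.181), among them the omission of EOM control array 1 (0.0725), 2 (0.139) or 3 (0.181), EOM EAMG array 1 (0.122) or 3 (0.140), DIA control array 2 (0.0504) or EDL control array 1 (0.0551), 2 (0.0566) or 3 (0.052). Tyr and Tyrp1, which also make pigment, stayed under 400. Over the 9 melanocyte genes with a probe set the median log2 change was -0.68. Against the control mean, Kit stood at -1.90, -2.23 and -1.79 on EAMG arrays 1, 2 and 3. Pmel stood at -1.47, -2.03 and -0.27 and Tyrp1 at -1.20, -1.28 and -0.53, whereas Dct, Tyr and Mitf lay above 0 on all 3. Kit, Pmel, Tyrp1, Tyr and Mitf were named after their values were seen. The melanocyte genes' summed signal was 1734 to 3018 in EAMG and 1480 to 1660 in control EOM.

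Of 18 muscle fibre genes 0 passed in EOM by limma (1 at an unadjusted p under 0.05), and the largest changes were those of Myh1 (-0.29, limma adjusted p = 0.330) and of Myh13, the myosin of eye muscle (-0.23). Myh13 read 27950, 21056 and 17345 against 27688, 24384 and 24618, which marks all 6 arrays as EOM, since it read at most 323 in DIA and EDL. The summed signal of the fibre genes was 350732 to 572960 on the EAMG arrays and 461989 to 495252 on the controls, and overlapped. The part of these other tissues in the lipid gene signals was not tested.

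In DIA the same genes did not show the EOM pattern. Of 14 probe sets 1 increased and 0 decreased in EAMG by limma (3 at an unadjusted p under 0.05), where 1.53% of all tested probe sets increased and 1.15% decreased. The median log2 change was -0.17. Dgat2 read 1614, 2540 and 1474 in EAMG DIA against 930, 884 and 775 in control DIA by 1391045_at (log2 1.08, SE 0.26, limma adjusted p = 0.0366). By 1371615_at it read 3247, 4171 and 2594 against 1779, 2312 and 1516 (log2 0.83, SE 0.34, limma adjusted p = 0.188), again with every EAMG array above every control. The call on 1391045_at was lost under 10 of 25 alternatives, over which its adjusted p ran from 0.0199 to 0.196. It was lost when DIA control array 1 (0.101), 2 (0.0742) or 3 (0.111), DIA EAMG array 2 (0.196) or 3 (0.0521), or EOM control array 2 (0.0529) or 3 (0.0528) was left out, while the log2 change stayed between 0.84 and 1.24.

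Thrsp read 914, 2189 and 1020 in EAMG DIA and 915, 3226 and 622 in control DIA (1371400_at), which overlapped entirely at a log2 change of 0.05 (SE 0.57, limma adjusted p = 0.972). Fasn read 1207, 1376 and 336 against 812, 4177 and 588 (1367708_a_at, log2 -0.61, SE 0.60, limma adjusted p = 0.610). Scd read 723, 388 and 24 against 894, 3771 and 595 (log2 -2.75, SE 1.04, limma adjusted p = 0.157). For all 3 genes the highest of the 6 DIA arrays was control array 2, and for Scd the lowest was EAMG array 3, the array with the highest GAPDH ratio. The change of Scd was -1.25 without DIA EAMG array 3 (limma adjusted p = 0.447) and -3.72 without DIA EAMG array 1, where it passed (limma adjusted p = 0.0497), and these were the highest and lowest adjusted p over the 25 alternatives.

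The DIA values rested heavily on control array 2. It exceeded the geometric mean of control arrays 1 and 3 by 6.04-fold for Fasn (1367708_a_at), 5.17-fold for Scd, 4.27-fold for Thrsp (1371400_at), 2.96-fold for Acly and 2.47-fold for Acaca, but by 1.41-fold for Dgat2 (1371615_at), 1.51-fold for Ces1d and 1.22-fold for Fabp5. Without it the DIA change of Fasn 1367708_a_at was 0.25 in place of -0.61, that of Acly 0.25 in place of -0.27 and that of Scd -1.96. Most of the 17 adipocyte genes with a probe set were highest of the DIA controls on array 2. Named after their values were seen, they were Adipoq, Lep, Plin1, Cidec, Fabp4, Cfd, Pck1, Adrb3, Ucp1, Slc7a10, Acvr1c and Lgals12. Over all tested probe sets this was so for 38.4%. Adipoq read 521, 1947 and 967 on DIA control arrays 1, 2 and 3, and Plin1, the droplet coat of fat cells, 383, 1536 and 594. The rest of the list were not highest there, since Aqp7 (log2 -0.46), Plin4 (-0.28), Cidea (-0.23), Lipe (-0.11) and Lpl (-0.03) lay below the mean of control arrays 1 and 3.

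DIA EAMG array 2 read high for Adipoq and Plin1 as well, with Adipoq at 2237 and Plin1 at 1934, against 385 and 313 on EAMG array 1 and 687 and 777 on array 3. There Fasn read 1376 and Scd 388, against 4177 and 3771 on control array 2. Pck1, which makes the glycerol backbone in fat cells, read 4235 on EAMG array 2 and 1443 on control array 2. Like Adipoq and Plin1, and unlike Fasn and Scd, Pck1 was thus higher on EAMG array 2 than on control array 2. It was also highest on array 2 within each group, by 5.47-fold over the geometric mean of control arrays 1 and 3. Ucp1, the uncoupling protein of brown fat, read 638 on control array 2 and between 4 and 99 on the other 5 DIA arrays. The summed signal of the adipocyte list was 36078 to 45351 in control and 41186 to 56393 in EAMG DIA, and its part in the lipid gene signals was not tested.

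**Figure D3:**
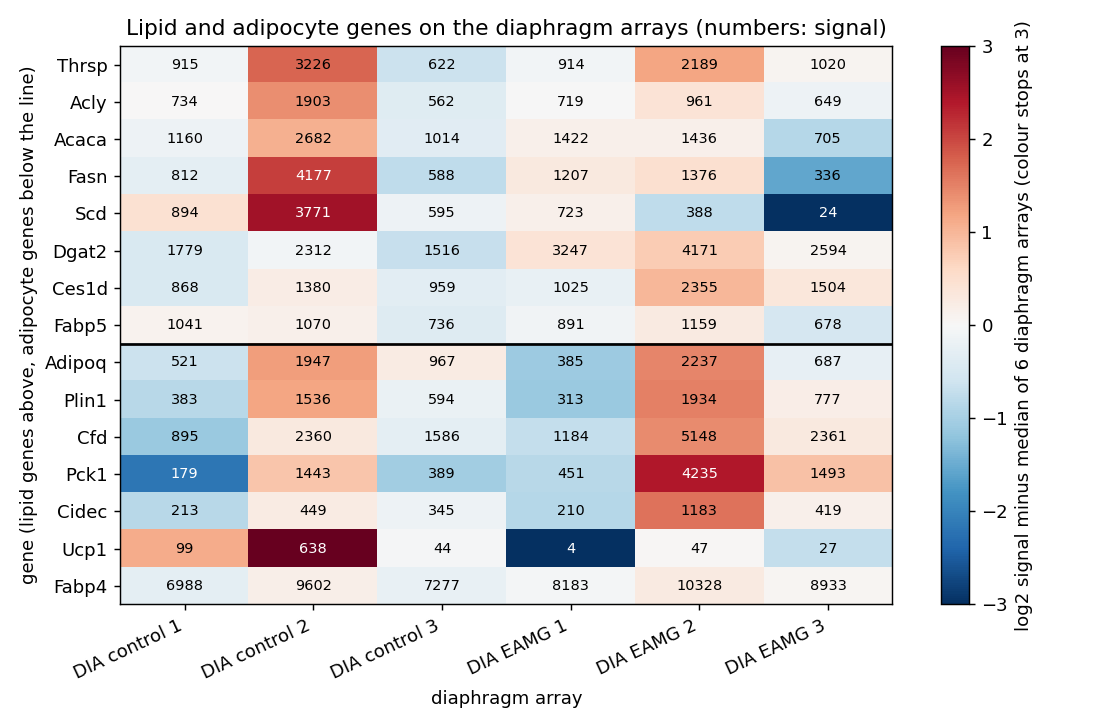
Signal of 8 lipid genes and 7 adipocyte genes on the 6 DIA arrays, printed in each cell, with colour for the log2 signal minus the median of the 6 arrays (colours stop at 3). Fasn and Scd stand out on control array 2 (4177 and 3771), whereas Adipoq and Plin1 are high on both control array 2 and EAMG array 2, and Scd falls to 24 on EAMG array 3.

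In EDL 0 of 14 probe sets passed in either direction by limma (3 at an unadjusted p under 0.05), where 3.37% of all tested probe sets increased and 3.22% decreased. The median log2 change was 0.00039. Scd read 104, 16 and 14 in EAMG EDL against 274, 429 and 159 in controls, lower on every EAMG array (log2 -3.21, SE 1.04, limma adjusted p = 0.0754). Over the 25 alternatives its adjusted p ran from 0.0203 to 0.239, and it passed without EDL EAMG array 1 (0.0248) and without DIA EAMG array 3 (0.0203). Same-numbered EDL arrays deviated together. With the replicate number as a block Scd passed as 1 of 14 (log2 -3.21, SE 0.88, limma adjusted p = 0.0406). That block was fitted as shared by all 18 arrays and all 3 muscles, so that it does not model a pairing within EDL. The share of all probe sets called under it was not computed. Fasn was likewise lower on every EAMG array by 1367708_a_at, at 184, 203 and 109 against 345, 441 and 278 (log2 -1.13, SE 0.60, limma adjusted p = 0.274).

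Dgat2 differed in the other direction, at 1586, 3544 and 1659 in EAMG EDL against 1198, 1091 and 1090 in controls (1371615_at, log2 0.90, SE 0.34, limma adjusted p = 0.122). Its second probe set, 1391045_at, read 787, 1491 and 1211 against 692, 688 and 834 and overlapped (log2 0.61, limma adjusted p = 0.162), and it passed without EDL EAMG array 1 (log2 0.87, limma adjusted p = 0.0417, over all alternatives 0.0417 to 0.433). Thrsp in EDL read 188, 205 and 211 against 197, 251 and 78 (1371400_at) and overlapped. Aadac read 62, 44 and 36 against 12, 4 and 29, which did not overlap but lay near the bottom of the scale (log2 2.06, SE 1.23, limma adjusted p = 0.328).

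The changes in DIA and EDL were compared directly. No probe set of the 10 genes differed in its EAMG change between the 2 muscles by limma (0 of 14 passed and 0 of 14 had an unadjusted p under 0.05, with 0.0163% of all tested probe sets called higher and 0 called lower). The widest gaps were those of Aadac, at 3.43 (SE 1.73, limma adjusted p = 0.937), and Mogat1, at 1.58 (SE 1.18, limma adjusted p = 0.966), both from signals near the bottom of the scale. For Acaca the difference was 0.57 (SE 0.51, limma adjusted p = 0.973). For Scd the difference was -0.46 with SE 1.46, so that a gap of several-fold would not have been detectable.

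Set beside each other with no test, since the genes were chosen on the EOM values, the log2 changes of Thrsp 1371400_at were 3.15 in EOM, 0.05 in DIA and 0.36 in EDL. For Fasn 1367708_a_at they were 1.34, -0.61 and -1.13, for Scd 0.0035, -2.75 and -3.21, and for Acly 0.83, -0.27 and -0.29. Fasn and Scd thus shared an order, EOM above DIA above EDL, although their changes in DIA and EDL did not pass. Dgat2 1391045_at was above 0 in all 3 muscles, at 1.04, 1.08 and 0.61. Ces1d stood at 1.44, 0.55 and 0.02, and Fabp5 at 1.55, -0.08 and -0.37.

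**Figure D4:**
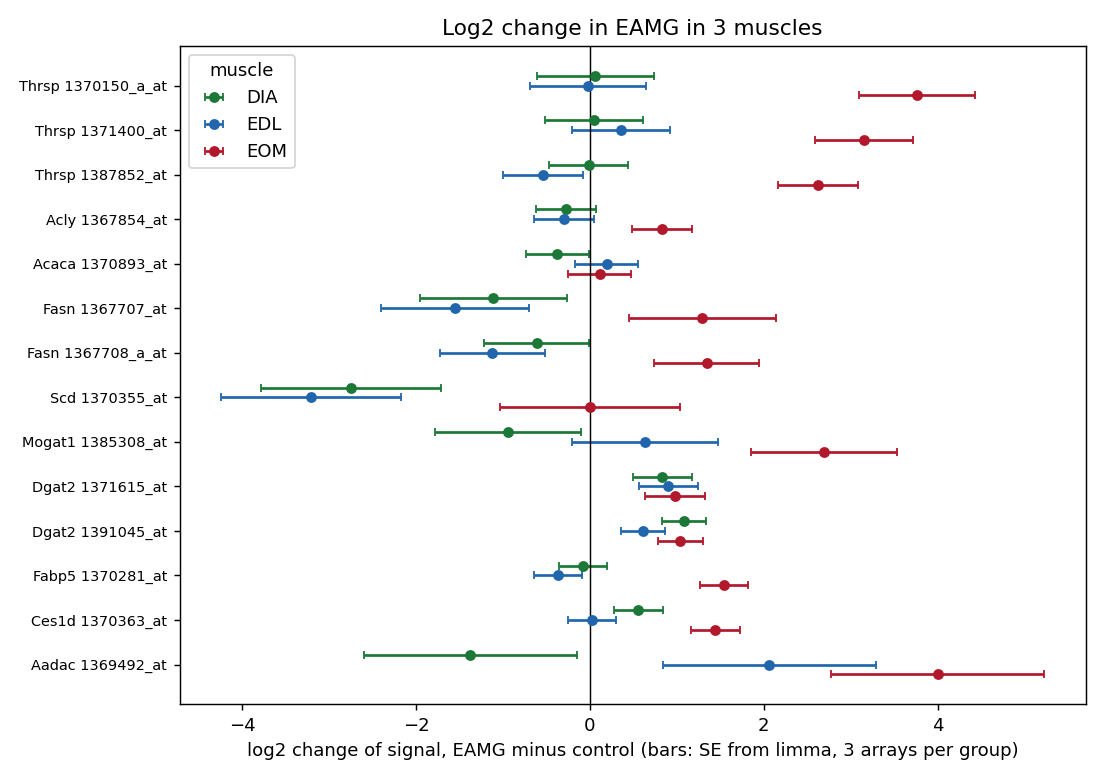
EAMG minus control on the log2 signal scale for the 14 tested probe sets in DIA, EDL and EOM, with bars of 1 SE from limma (3 arrays per group). Each SE pools the spread of all groups and does not measure that of 1 muscle alone. EOM values lie right of those of DIA and EDL for Thrsp, Acly, Fasn, Scd, Mogat1, Fabp5, Ces1d and Aadac, and close to them for both probe sets of Dgat2 and for Acaca.

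The levels in control muscle showed where these genes are expressed without EAMG. Control DIA exceeded control EDL on all 14 probe sets, with a median log2 difference of 1.38, and 8 of 14 passed as higher in DIA by limma, where 14.1% of all tested probe sets did. The 14 include those of Aadac and Mogat1, which were tested through their EOM EAMG signals only. These 6 arrays gave none of the EOM values on which the genes were chosen. Thrsp averaged 1588 ± 1426 (SD, n = 3) in control DIA and 176 ± 88.5 (SD, n = 3) in control EDL (1371400_at, log2 2.96, SE 0.57, limma adjusted p = 0.00179), and its other probe sets passed at log2 2.88 (limma adjusted p = 0.00622) and 1.41 (limma adjusted p = 0.0357). The other 5 that passed were Ces1d (log2 1.40, limma adjusted p = 0.00251), Acly (1.37, limma adjusted p = 0.00966), Acaca (1.35, limma adjusted p = 0.0136), Fabp5 (1.02, limma adjusted p = 0.0147) and Fasn 1367708_a_at (1.85, limma adjusted p = 0.0364).

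Without DIA control array 2, 4 of the 8 passed, namely Thrsp 1371400_at (2.26, limma adjusted p = 0.00751), Thrsp 1370150_a_at (2.32, limma adjusted p = 0.0338), Ces1d (1.20, limma adjusted p = 0.0143) and Acly (0.85, limma adjusted p = 0.0303). Without EDL control array 3, 5 passed. The summed signal of adipocyte markers was 36078 to 45351 in control DIA and 15407 to 17370 in control EDL, and its part in these differences was not tested.

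Control EOM was set against the other muscles with the caution that the EOM control arrays also entered the values on which the genes were chosen. Against control EDL, 4 of 14 probe sets passed as higher in EOM by limma and 0 as lower, where 23.1% and 18.3% of all tested probe sets did. They were Ces1d (log2 1.21, limma adjusted p = 0.00298), Acly (1.28, limma adjusted p = 0.00785), Fabp5 (0.84, limma adjusted p = 0.0244) and Mogat1 (2.18, limma adjusted p = 0.0481). Mogat1 read 54 to 147 in control EOM and 9 to 52 in control EDL, all below 400, and it entered the tests through the EOM EAMG arrays only, so that nothing is read from its call. The call was lost under 17 of 24 alternatives (adjusted p 0.0132 to 0.252), among them the omission of any of 12 arrays, EDL control array 1 the most (0.191). Fabp5 was lost without EDL control array 1 (0.0522) or 3 (0.0797) or EOM control array 1 (0.115) or 2 (0.0532), over a range of 0.0111 to 0.115.

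Against control DIA, 2 of 14 passed as lower in EOM and 0 as higher by limma, where 10.7% and 10.6% of all tested probe sets did. Both were of Thrsp, 1370150_a_at (log2 -2.41, limma adjusted p = 0.0177) and 1371400_at (-1.83, limma adjusted p = 0.0310). Neither passed without DIA control array 2 (limma adjusted p = 0.0872 and 0.150), EOM control array 2 (0.0563 and 0.0823) or EOM control array 3 (0.0895 and 0.121), out of ranges of 0.00638 to 0.0895 and 0.0147 to 0.150. In control rats Thrsp 1371400_at was thus ordered DIA (mean signal 1588), EOM (366) and EDL (176), and the neighbours EOM and EDL did not differ beyond their spread (log2 1.14, limma adjusted p = 0.123). In EAMG rats the EOM mean was 3251 ± 1205 (SD, n = 3).

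The named genes whose log2 signal followed that of Thrsp 1371400_at most closely over the 18 arrays, among 9797 probe sets with 1 gene symbol, were Mgst1 (Pearson's r 0.93), Ces1d (0.89), Pex11a (0.88), Rhot1 (0.88), Fabp5 (0.88) and Acly (0.88). These values are descriptive, since the arrays share muscles and treatments. Mgst1, a membrane-bound glutathione transferase, read 3306, 2776 and 5339 in EAMG EOM and 1201, 1002 and 1058 in control EOM. It did not pass in DIA (log2 0.69, limma adjusted p = 0.366) or in EDL (0.41, limma adjusted p = 0.587). Pex11a, which takes part in the division of peroxisomes, read 383, 304 and 430 against 107, 115 and 91 in EOM.

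Over the 12 DIA and EDL arrays alone the likeness to Thrsp was 0.97 for Mgst1, 0.94 for Acly, 0.93 for Ces1d and 0.90 for Fabp5, so that these followed Thrsp outside EOM as well. Aadac and Mogat1 did not, with r of -0.21 and 0.20 over those 12 arrays, where both were near the bottom of the scale, and 0.97 and 0.96 over the 6 EOM arrays. Scd followed Thrsp the least in EOM (r -0.08 over 6 arrays, 0.54 over 12).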

How the data were processed

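Per the labels, GCOS 2.0 made the deposited values: linear signal intensity per probe set of Affymetrix rat arrays, each scaled by the authors to 1 target, which left a 2% trimmed mean near 500 on each array. Genes were named from the platform's probe table (20826 probe sets with 1 symbol, 436 with several, 9780 with none). The log2 signal was fitted with limma 3.58.1 in R 4.3.3 (lmFit, eBayes, 6 group means over 18 arrays), and p-values were adjusted by Benjamini-Hochberg over the 12238 probe sets that reached 400 on at least 1 array, as in the study's filter. The fit, tested on simulated data for the EOM contrast over 12238 probe sets, recovered 93% of 100 changes of log2 size 2 and 69% of 100 of size 1. The genes, lists and tests were chosen with earlier results of these data known. Named genes were the 10 members, the up to 4 genes per list with the largest EOM changes that passed (the 2 largest where none did) and the 6 nearest to Thrsp. The brightest probe set over 18 arrays stood for each list gene. Same-numbered arrays deviated together at an r above 0.1 for all 3 numbers in EDL EAMG against EDL control (r 0.194, 0.148 and 0.342). No other of 15 pairs of groups met this rule. The pairing comes from these values, not from the labels. The array number limits precision, and p-values measure the spread between pools. There were 25 alternatives: no signal minimum, the minimum on 3 arrays, quantile normalization, 100 added, each muscle alone, a replicate block, each array left out, and both arrays of low poly-A signal left out.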

Additional observations from a re-analysis of the deposited data

Results flagged for a closer look

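The EAMG change in EOM differed from that in EDL for 2 genes of the lists, which held 100 tested genes, by a limma test of the difference itself. Both had been named for their EOM changes, which enter this difference. The share of all tested probe sets called in this comparison was not computed, so that nothing is read from the count. For Rbp7 the difference was 3.385 on the log2 scale (SE 0.51, limma adjusted p = 0.0108), and for Acsl5 it was 1.437 (SE 0.25, limma adjusted p = 0.0413). Each was higher on 3 of 3 EAMG arrays in EOM. The same difference against DIA did not pass for either (limma adjusted p = 0.107 and 0.170).

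For 2 of the 10 genes every EAMG array lay above every control in EOM and below every control in another muscle. The change of Fasn 1367708_a_at was 2.467 higher in EOM than in EDL on the log2 scale, and that of Mogat1 was 3.636 higher in EOM than in DIA, where its signals were near the bottom of the scale. These differences were not tested, because the genes were chosen on their EOM values.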

How the results depend on the processing

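With 1 array left out, the EOM change ran from 3.27 to 4.33 for Thrsp 1370150_a_at, 2.29 to 3.24 for Mogat1 and 3.37 to 4.92 for Aadac. With 100 added to each signal, that of Aadac fell to 2.52. The same addition also lowered the changes of the other genes with dim controls, Mogat1 and Thrsp 1370150_a_at among them. In DIA, the count of probe sets that increased went from 1 to 0 with no signal minimum, with DIA fitted alone and without both arrays of low poly-A signal, and with 1 array left out it ran from 0 to 1, as did the counts of those that decreased in DIA and that increased or decreased in EDL. The count lower in control EOM than in control DIA, 2, became 0 with no minimum, 5 with quantile normalization, 4 with these groups fitted alone and 4 without both arrays of low poly-A signal, and ran from 0 to 5 with 1 array left out. The count higher in control EOM than in control EDL, 4, became 2 with no minimum and ran from 2 to 4, and with these groups fitted alone 1 was lower. The count higher in control DIA than in control EDL, 8, became 4 with no minimum and ran from 4 to 9. The 5 list genes that increased in EOM became 1 with no minimum and 8 with 100 added, and ran from 2 to 7 (2 without EOM control array 2 or 3, 3 without EOM control array 1 or EOM EAMG array 1).

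By an r above 0.1 for all 3 numbers, replicate numbers paired the arrays of EDL EAMG and EDL control only. Between EDL control and EOM control each array was also most like that of its own number (r 0.142, 0.0427 and 0.125). Between DIA EAMG and EOM EAMG the r values were 0.0896, 0.469 and 0.237. Same-numbered deviations correlated above 0.1 in 20 of 45 pairs in all (-0.2 to 0.469). With a replicate block shared by all 18 arrays, 1 probe set decreased in EDL (Scd, limma adjusted p = 0.0406) and 5 were lower in control EOM than in control DIA. Under the same block Mogat1 did not pass as higher in control EOM than in control EDL (0.0561).

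Signs turned for values near 0 that passed no test. Without both arrays of low poly-A signal, the DIA change of Thrsp was -0.45 (1370150_a_at) and -0.34 (1371400_at). With 1 array left out, DIA changes ran from -0.45 to 0.62, -0.44 to 0.75 and -0.46 to 0.38 for the 3 Thrsp probe sets, -1.16 to 0.25 for Fasn 1367708_a_at, -0.27 to 0.12 for Fabp5, -0.63 to 0.25 for Acly and -0.64 to 0.05856 for Acaca. EDL changes ran from -0.59 to 0.39 and -0.14 to 0.70 for Thrsp, -0.24 to 1.74 for Mogat1, -0.06999 to 0.20 for Ces1d and -0.12 to 0.47 for Acaca. EOM changes ran from -0.23 to 0.005548 for Cpox, -0.03136 to 0.19 for Alas1 and -0.53 to 1.63 for Lcn2. The cause of these turns was not tested. SE values were above 1 for Scd and Aadac with 3 pools a group. Changes of less than several-fold in these 2 genes were thus not detectable by limma. Each SE was fitted over all groups together, so that it does not measure the EOM spread of Scd. Scd averaged 1296 ± 117 (SD, n = 3) in EAMG EOM and 1302 ± 230 in control EOM. In DIA it averaged 378 ± 350 in EAMG and 1753 ± 1754 in controls.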
